A study of Rattus norvegicus with 54 samples.

Results

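Integrins and laminins were followed as a set of 37 genes among the 40319 genes of the count tables. The members are all genes whose symbols have the form of an integrin alpha chain (Itga), an integrin beta chain (Itgb) or a laminin alpha, beta or gamma chain (Lama, Lamb, Lamc), a rule that reads the symbols and no measured value. They comprise 26 integrins and 11 laminins, and 34 of them were abundant enough to be tested in all 9 comparisons of treatments. The samples came from 18 athymic female F344/NJcl-rnu/rnu rats, which were 8 weeks old at surgery and lack a normal thymus in all groups. Of these, 6 were sham-operated (Sham), 6 underwent complete ligation of the proximal left anterior descending artery without treatment (MI), and 6 underwent the same ligation and received a cell sheet placed over the infarct (MI+Cell Sheet), which was built from human smooth muscle cells and endothelial progenitor cells in a bi-level sheet. At 1 week after surgery each left ventricle was cut into pieces of the infarct, border and remote zones, and the matching positions were taken from Sham hearts, which have no infarct. This gave 54 poly(A) RNA libraries in 9 groups of 6. Reads were aligned to the rat genome only, so that transcripts of the human sheet were not analysed here, and their part in the rat counts was not tested.

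Integrins are cell surface receptors made of an alpha and a beta chain that bind matrix proteins or ligands on other cells, and the combination of chains sets what is bound. Leukocytes carry their own set built around Itgb2 and Itgb7, fibroblasts and other mesenchymal cells carry collagen receptors and receptors for fibronectin and vitronectin built around Itgb1 and Itgav, and cardiac and skeletal muscle fibres hold on to their basement membrane through Itga7 paired with Itgb1. Laminins are the large trimers of an alpha, a beta and a gamma chain that form the scaffold of basement membranes around muscle fibres, vessels and epithelia, and after a myocardial infarction the lost muscle is replaced by a collagen-rich scar populated by fibroblasts and leukocytes.

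The libraries held 12699204 to 23397754 counts on genes. CPM here are counts per 1000000 counts of a library whose size was adjusted by TMM factors, and levels of different genes are not compared because longer transcripts yield more counts. Of the 18 hearts, 3 are set out here because they stood apart in marker genes of cell types. In Sham replicate 5 the summed CPM of 7 macrophage and pan-leukocyte markers was 12135 in the infarct position, against a median of 477 in the 6 Sham libraries, and it was 12161 in the border and 7008 in the remote position. Cd3e, a chain of the T cell receptor complex, reached 102 CPM in its infarct position, where the Sham median was 0.259 CPM. The 7 lymphocyte markers summed to 468 CPM there, against a Sham median of 61.3. In MI+Cell Sheet replicate 1 the remote piece held 41811 CPM of 7 fibroblast markers and 20347 CPM of 7 cardiomyocyte markers, whereas the other 5 remote pieces of the group lay at 3364 to 11548 and 39907 to 59449 CPM. In the infarct piece of MI+Cell Sheet replicate 6 the 4 skeletal muscle markers summed to 65.9 CPM and the cardiomyocyte markers to 28675 CPM, against medians of 1.14 and 2496 CPM in the 6 libraries of its group. Without this heart the infarct zone still gave 0 members against MI, where 0 of all genes passed too. Against Sham 14 members then rose and 8 fell, in place of 14 and 9 with all hearts. With all hearts 57.9% of all genes passed against Sham (28.6% higher and 29.2% lower). On leaving out any 1 heart, this one included, 7975 to 11159 genes passed. Results that rest on the first and second of these hearts are given with and without them. The Sham hearts otherwise carried high cardiomyocyte markers, with a median of 52959 CPM in the infarct position and 9692 CPM in MI.

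For Itgam, Itgax, Itga11 and Lama3, the 250 bases before the annotated transcription start are shown as examples. With all animals these genes were called in 1, 0, 5 and 5 of the 9 comparisons. Each of them holds a motif marked below. Itga8, Itga3 and Itgb5, called in 5, 5 and 4 comparisons, hold neither motif, so the examples do not stand for the called members. The sequences are those of RefSeq on the GRCr8 assembly, each written 5′ to 3′ on the strand of the gene, and capitals mark GAGGAA on either strand, the core read by the myeloid factor PU.1, or TGANTCA, the site of AP-1 factors. The letters of these motifs do not overlap in the sequences printed here. Itgam, at chr1:192089342-192089591 on the plus strand, has GAGGAA at 151 and 39 bases before the start. Itgax, the next gene to Itgam in the annotation order, at chr1:192149799-192150048 on the plus strand, has a single TGANTCA at 56 bases before the start. Itga11, at chr8:72041182-72041431 on the plus strand, has GAGGAA at 41 bases before the start. Lama3, at chr18:3952517-3952766 on the plus strand, has TGANTCA at 240, 92 and 36 bases before the start.
Itgam: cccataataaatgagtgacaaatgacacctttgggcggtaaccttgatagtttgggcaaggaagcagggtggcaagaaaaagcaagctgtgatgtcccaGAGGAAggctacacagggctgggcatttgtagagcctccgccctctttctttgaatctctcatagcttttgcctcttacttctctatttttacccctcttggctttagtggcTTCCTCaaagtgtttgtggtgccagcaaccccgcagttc
Itgax: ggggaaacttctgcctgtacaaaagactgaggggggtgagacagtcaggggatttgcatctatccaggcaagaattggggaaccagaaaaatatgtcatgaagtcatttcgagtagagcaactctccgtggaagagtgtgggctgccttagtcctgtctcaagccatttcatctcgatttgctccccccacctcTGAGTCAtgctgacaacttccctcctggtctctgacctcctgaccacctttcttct
Itga11: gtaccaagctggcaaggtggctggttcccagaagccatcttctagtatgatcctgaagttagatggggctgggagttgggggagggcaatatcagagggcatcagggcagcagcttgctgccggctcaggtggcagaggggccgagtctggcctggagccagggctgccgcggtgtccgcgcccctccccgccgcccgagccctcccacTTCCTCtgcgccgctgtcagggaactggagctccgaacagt
Lama3: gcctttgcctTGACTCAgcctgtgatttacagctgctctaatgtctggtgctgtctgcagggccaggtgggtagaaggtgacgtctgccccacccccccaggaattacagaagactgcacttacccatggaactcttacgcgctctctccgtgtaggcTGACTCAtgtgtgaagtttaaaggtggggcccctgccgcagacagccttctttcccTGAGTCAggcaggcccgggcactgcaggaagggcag
Of the 28 members with a promoter in the table, 11 (39.3%) held GAGGAA, against 7812 of all 33469 promoters (23.3%), and 2 (7.14%) held TGANTCA, against 2122 (6.34%). Among leukocyte integrins with a promoter, 2 of 5 held GAGGAA, the same share as the 4 of 10 mesenchymal integrins. It was held by 2 of 2 laminin beta chains and 1 of 5 laminin alpha chains. A match of letters is a description and does not show that a factor binds.

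In the infarct zone of untreated MI, 6 of 9 tested mesenchymal integrins and Lama3 rose, and the muscle integrin Itga7 and the laminin chain Lamb2 fell. By edgeR's quasi-likelihood test with Benjamini-Hochberg adjustment over all genes, 9 members rose and 10 fell in MI against Sham, of 35 tested, where 49.9% of all genes passed (22.7% higher and 27.2% lower). The members called were thus close in share to all genes. With library size alone in place of TMM factors, where the median gene lay at 0.24 on the log2 scale, the split was 15 higher and 5 lower. In that fit 52.8% of all genes passed, and 35.5% were higher, so all genes shared the tilt upward. The border zone gave 9 members that rose and 6 that fell of 35, where 41.7% of all genes passed (18.4% higher and 23.2% lower), or 10 and 3 under library size alone (41.9% of all genes, 26.9% higher). The remote zone gave 4 and 4 of 35, where 25.8% of all genes passed (11.7% higher and 14.2% lower), or 8 and 3 under library size alone (24.8% of all genes, 17% higher). Without Sham replicate 5 the counts were 16 and 11 of 37 (infarct), 16 and 7 of 35 (border) and 14 and 5 of 35 (remote), where 64.8% (34.1% higher and 30.7% lower), 60.8% (31.9% and 28.9%) and 46.5% (23.7% and 22.8%) of all genes passed. These are changes in RNA per piece of tissue, in which fewer cells of a type and less RNA per cell cannot be told apart. In the labels a group's libraries are technical replicates, whereas the study's methods name separate hearts, so the p-values measure only the spread between these samples.

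**Figure D1:**
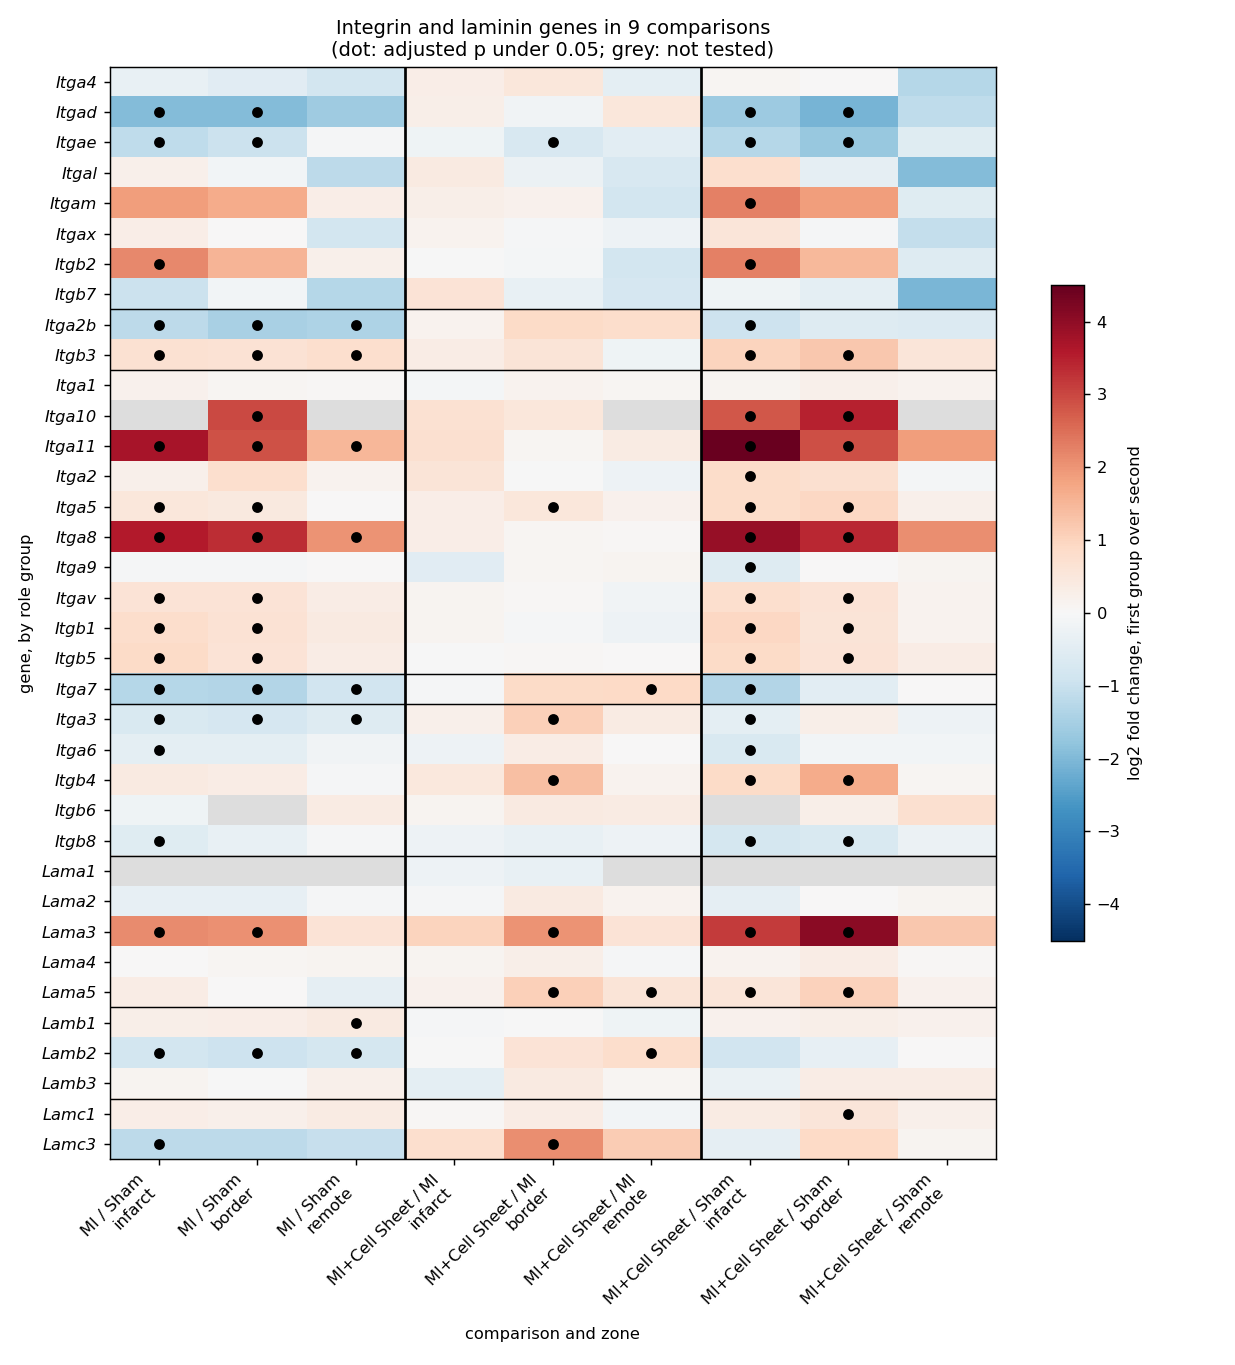
Log2 fold change (colour) of the members (rows, by role, with 1 member not shown) in the 9 comparisons of 2 treatments within a zone (columns), with a dot where the adjusted p of edgeR's quasi-likelihood test was under 0.05 and grey where the gene was not tested. Itga8, Itga11 and Lama3 are red in the infarct and border zones of MI and of MI+Cell Sheet against Sham, and the column of MI+Cell Sheet against MI in the infarct zone holds no dot.

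The leukocyte integrins showed the dependence on Sham replicate 5 most plainly. Itgb2 encodes the beta chain shared by the integrins of neutrophils, macrophages and lymphocytes. In the infarct position of Sham its CPM were 9.25 at the lowest, 10.7 at the median and 150 at the highest, which was replicate 5, the next Sham heart being at 11.6. In MI its CPM ran from 47.2 to 298 (median 114). Every MI library was therefore above 5 of the 6 Sham hearts, and the sixth lay within the MI range. The log2 fold change was 2.16 (SE 0.82, adjusted p = 0.0432, edgeR's quasi-likelihood test), a call that was lost on leaving out any of Sham replicates 1, 2, 3, 4 and 6 or MI replicates 2 to 6, with adjusted p from 0.0514 to 0.0925. Without Sham replicate 5 it was 3.89 (SE 0.44, edgeR adjusted p = 3.65e-05).

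Itgam, the alpha chain that forms the complement receptor of macrophages and neutrophils with Itgb2, lay at 5.39 to 106 CPM in Sham (median 9.51) and 39.2 to 159 CPM in MI (median 73.0). Its difference did not pass the test with all animals (log2 1.89, SE 0.76, edgeR adjusted p = 0.0546) and passed without Sham replicate 5 (3.50, edgeR adjusted p = 3.15e-05) and without MI replicate 1 (edgeR adjusted p = 0.0325). Itgal, whose product with Itgb2 binds intercellular adhesion molecules, was at 7.45 to 197 CPM in Sham (median 8.61) and 17.0 to 80.7 CPM in MI (median 42.3). The Sham heart with the extreme value again was replicate 5, which lay above every MI heart. Itga4, which binds vascular cell adhesion molecule and fibronectin, gave the same order, with 1.69 to 83.2 CPM in Sham (median 3.98) and 10.5 to 18.9 CPM in MI (median 12.5). With all animals the log2 differences were 0.22 for Itgal and -0.33 for Itga4 (edgeR adjusted p = 0.846 and 0.767), and without Sham replicate 5 they were 2.49 and 1.95 (edgeR adjusted p = 7.78e-05 and 6.00e-05). For Itga4 the sign of the estimate thus depended on 1 heart.

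**Figure D2:**
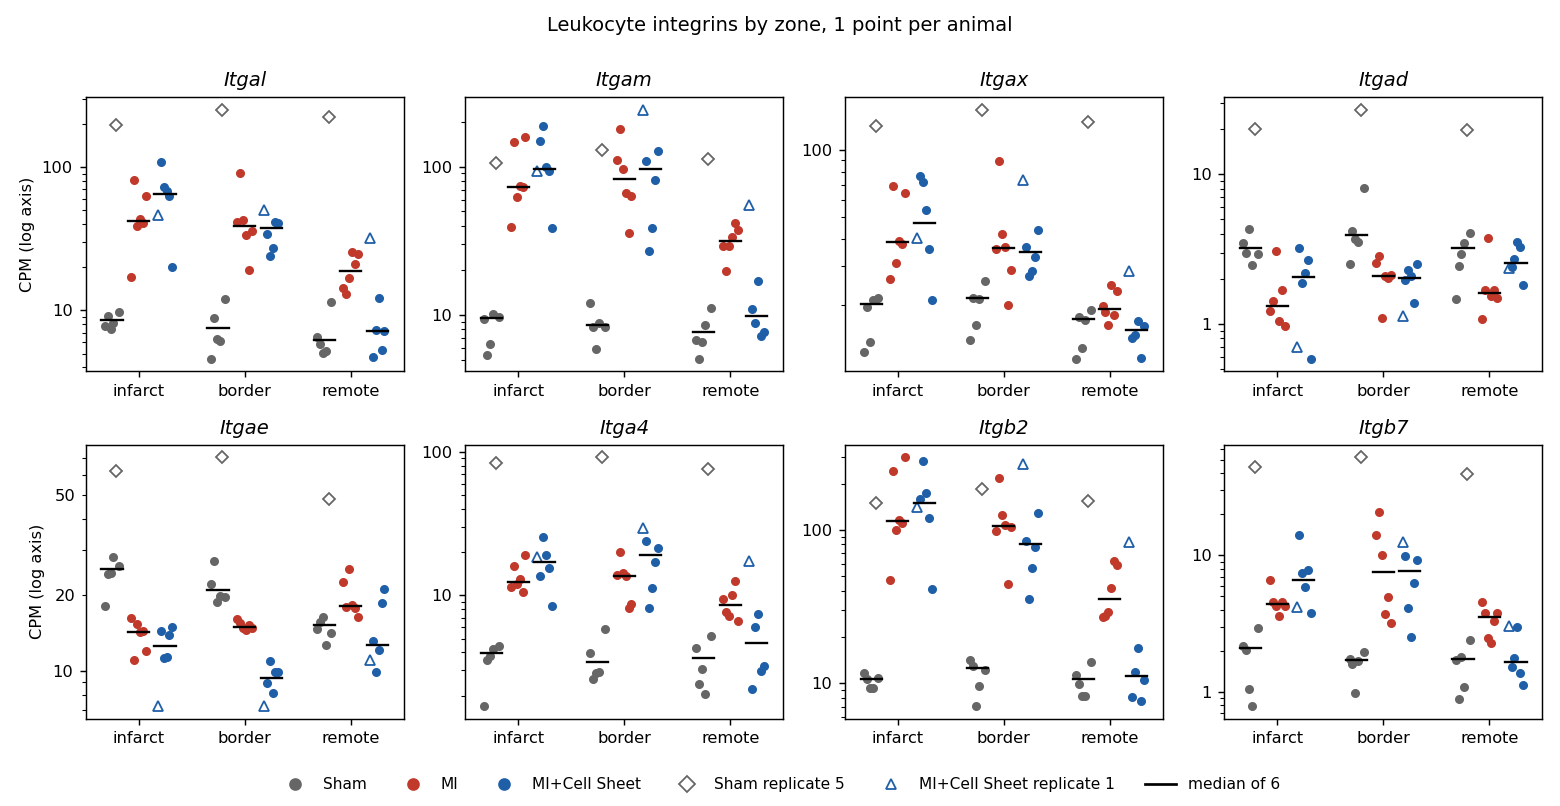
CPM (log axis) of 8 leukocyte integrins in every library, by zone and treatment (grey Sham, red MI, blue MI+Cell Sheet), with a black bar at the median of 6. The open diamond is Sham replicate 5 and the open triangle MI+Cell Sheet replicate 1, and for Itgb2 in the infarct zone the diamond at 150 CPM lies among the MI points while the other Sham points lie near 10.7.

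Of the 8 leukocyte integrins, 1 rose and 2 fell in the infarct zone with all animals, whereas 6 rose and 2 fell without Sham replicate 5, with medians of -0.05 and 1.67 on the log2 scale beside medians of -0.02 and 0.04 for all genes. For the border zone the counts were 0 and 2 with all animals, and 6 and 2 without that heart (median 2.20). No leukocyte integrin passed in the remote zone with all animals, and 6 of 8 rose without it (median 1.24). Without that heart, 34.1% of all genes were higher and 30.7% lower in the infarct zone. These shares were 31.9% and 28.9% in the border zone and 23.7% and 22.8% in the remote zone. With all animals they were 22.7% and 27.2%, 18.4% and 23.2%, and 11.7% and 14.2%. In the remote zone, without that heart, Itgb2 differed by 2.00 and Itgam by 2.07 on the log2 scale (edgeR adjusted p = 4.02e-05 and 1.49e-05). Leaving out replicate 5 also removed the marker levels given above, and their part in the results with all Sham hearts was not tested. In MI the macrophage and pan-leukocyte list summed to 2206 to 11203 CPM in the infarct zone, and with all animals 3 of its 7 genes and 4 of 5 neutrophil genes were called higher there.

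The pair of leukocyte integrins that fell did so with and without that heart in the infarct and border zones. Itgae, the alpha chain of an integrin that binds E-cadherin on epithelia and is found on intraepithelial lymphocytes and some dendritic cells, was at 18.1 to 62.2 CPM in Sham (median 25.2) and 11.0 to 16.1 CPM in MI (median 14.3). The groups did not overlap, as was true of 14.1% of all genes in that comparison, and the log2 fold change was -1.15 (SE 0.27, edgeR adjusted p = 0.00472), or -0.80 without Sham replicate 5 (edgeR adjusted p = 0.000346). Itgad, the least studied partner of Itgb2, was at 2.49 to 20.0 CPM in Sham (median 3.22) and 0.963 to 3.08 CPM in MI (median 1.32). It fell by 1.96 on the log2 scale (SE 0.57, edgeR adjusted p = 0.0135), and by 1.04 without that heart (edgeR adjusted p = 0.0109). Itgb7, the partner of Itgae and Itga4, did not pass with all animals (log2 -0.96, edgeR adjusted p = 0.382) and was higher in MI without that heart (1.38, edgeR adjusted p = 0.00233). Itgax, a marker of dendritic cells and some macrophages, gave 0.28 and 1.34 on the log2 scale in these fits (edgeR adjusted p = 0.696 and 0.00113). The values of Itgam, Itgal, Itga4, Itgb7 and Itgax in this comparison are given to complete the role group, chosen after they were seen.

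Among the mesenchymal integrins 6 of 9 tested rose and none fell in the infarct zone, with a median log2 fold change of 0.60. Itga8, a receptor of smooth muscle and fibroblast-like cells that binds nephronectin and fibronectin, was at 2.74 to 10.4 CPM in Sham (median 5.21) and 20.3 to 99.0 CPM in MI (median 77.1). It rose by 3.58 (SE 0.39, edgeR adjusted p = 7.82e-05). Itga11, a collagen receptor of fibroblasts, was at 0.802 to 3.84 CPM in Sham (median 2.26) and 5.84 to 44.9 CPM in MI (median 29.7). Its log2 fold change was 3.73 (SE 0.46, edgeR adjusted p = 0.000158). For both genes the lowest MI heart, replicate 1, was still above the highest Sham heart.

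Smaller rises were found for the chains that are shared by many receptors. Itgb1, the common beta chain of collagen, fibronectin and laminin receptors, was at 428 to 561 CPM in Sham and 592 to 926 CPM in MI without overlap, a log2 fold change of 0.79 (SE 0.13, edgeR adjusted p = 0.000938). Of the others, Itga5, the fibronectin receptor chain, rose by 0.51, Itgav by 0.60 and its vitronectin-binding partner Itgb5 by 0.85 on the log2 scale (edgeR adjusted p = 0.00293, 0.00218 and 0.00207). Itga1, Itga2 and Itga9 did not pass, at 0.20, 0.23 and -0.07 (edgeR adjusted p = 0.244, 0.572 and 0.733). Itga10, a collagen receptor best known from cartilage, was low, with 0 to 9 counts in the Sham and 7 to 55 counts in the MI infarct libraries, and was not tested there with all animals. It was tested in the border zone, where it rose by 2.98 (SE 0.44, edgeR adjusted p = 0.000705). These mesenchymal rises moved with the fibroblast markers, of which 6 of 7 were called higher in the infarct zone and whose sums ran from 4115 to 6052 CPM in Sham and from 14466 to 42088 CPM in MI, and their part in the rises was not tested.

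The border and remote zones repeated part of the list. Of 10 mesenchymal integrins 7 rose in the border zone, Itga8 by 3.34 and Itga11 by 2.85 on the log2 scale (edgeR adjusted p = 7.60e-05 and 0.00272). Of 9 tested in the remote zone only Itga8 and Itga11 rose, by 2.04 and 1.50 (edgeR adjusted p = 0.00556 and 0.0205), and Itga11 was no longer called without MI replicate 4 (edgeR adjusted p = 0.0524). Itgb1 and Itgav were at 0.39 and 0.33 there and missed the threshold (edgeR adjusted p = 0.0533 and 0.0626), and both passed without Sham replicate 5 or without MI replicate 1 (edgeR adjusted p from 0.00258 to 0.0277 for Itgb1 and from 0.00390 to 0.0240 for Itgav).

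**Figure D3:**
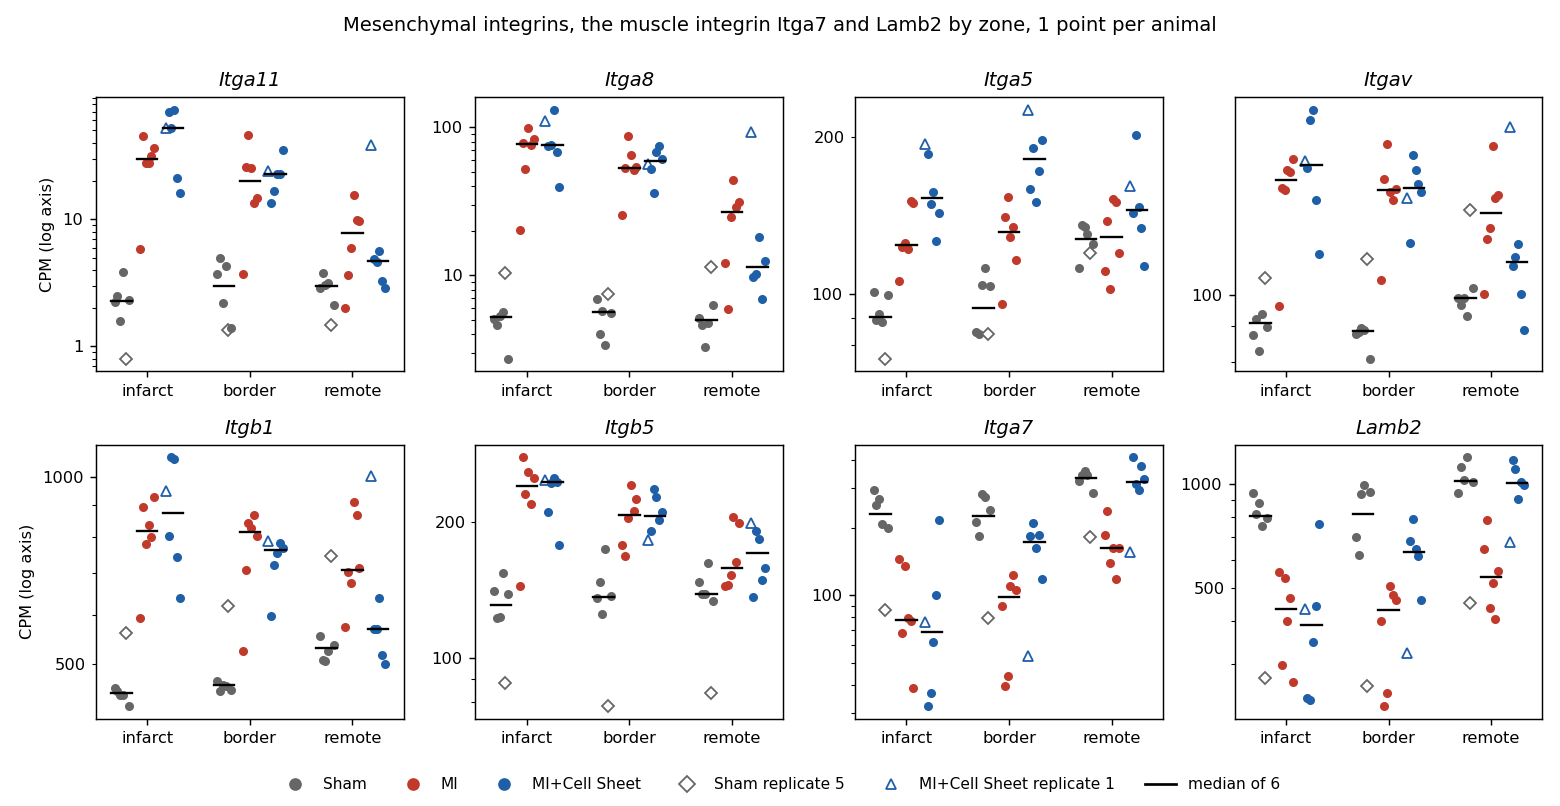
CPM (log axis) of 6 mesenchymal integrins, the muscle integrin Itga7 and the laminin chain Lamb2 in every library, by zone and treatment (grey Sham, red MI, blue MI+Cell Sheet), with a black bar at the median of 6, an open diamond for Sham replicate 5 and an open triangle for MI+Cell Sheet replicate 1. Itga8 and Itga11 do not overlap between Sham and MI in the infarct zone, and the remote MI+Cell Sheet points of both genes lie low except the triangle, at 92.4 CPM for Itga8 and 38.7 CPM for Itga11.

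The platelet and beta-3 pair moved in opposite directions. Itgb3, which joins Itgav in osteopontin and vitronectin receptors and Itga2b in the platelet fibrinogen receptor, was at 6.34 to 14.1 CPM in Sham (median 8.65) and 13.6 to 18.5 CPM in MI (median 14.3) and rose by 0.67 on the log2 scale (SE 0.18, edgeR adjusted p = 0.00943). It rose by 0.66 in the border and 0.75 in the remote zone (edgeR adjusted p = 0.00746 and 0.00360), and in the remote zone the groups did not overlap, as for 8.24% of all genes. Itga2b was at 5.23 to 27.2 CPM in Sham (median 10.3), again with replicate 5 as the highest, and 3.62 to 7.27 CPM in MI (median 5.23). It fell by 1.17 on the log2 scale (SE 0.37, edgeR adjusted p = 0.0205), and by 0.71 without that heart (edgeR adjusted p = 0.0220). In the border and remote zones it fell by 1.44 and 1.38 (edgeR adjusted p = 0.0383 and 0.0337). Without Sham replicate 5 the border call was lost (-0.78, edgeR adjusted p = 0.0731), as it was without Sham replicate 1 or any of MI replicates 1, 2, 4, 5 and 6, and the remote fall was 0.74 (edgeR adjusted p = 0.0254). The remote call was lost without Sham replicate 3 or any of MI replicates 1, 3, 4, 5 and 6 (edgeR adjusted p from 0.0580 to 0.0777).

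Itga7, the alpha chain of the laminin receptor of muscle fibres, fell in every zone of untreated MI hearts. In the infarct zone it was at 85.7 to 294 CPM in Sham (median 231) and 38.8 to 145 CPM in MI (median 77.7), and the single Sham heart inside the MI range was replicate 5. The log2 fold change was -1.27 (SE 0.34, edgeR adjusted p = 0.00927), and -1.43 without that heart (edgeR adjusted p = 0.00112). In the border and remote zones it fell by 1.32 and 0.87 on the log2 scale (edgeR adjusted p = 0.0114 and 0.00524). Cardiomyocyte markers fell with it in the infarct zone, 7 of 7 being called lower, and 3 of 7 in the remote zone. Their part in the fall was not tested.

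Of the integrins of epithelia and endothelium, Itga3, Itgb8 and Itga6 fell in the infarct zone and none rose. Itga3, a laminin receptor chain of basement membranes, went from 13.8 to 22.9 CPM in Sham to 9.17 to 14.3 CPM in MI, a log2 fold change of -0.68 (SE 0.15, edgeR adjusted p = 0.00380). It also fell in the border and remote zones, by 0.76 and 0.59 on the log2 scale (edgeR adjusted p = 0.00651 and 0.00968). Itgb8, which with Itgav releases active TGF-beta, was at 36.0 to 48.7 CPM in Sham and 21.0 to 39.7 CPM in MI, and fell by 0.54 (SE 0.16, edgeR adjusted p = 0.0140). Itga6, the laminin receptor chain of endothelium and epithelia, was at 118 to 209 and 101 to 160 CPM and fell by 0.45 (SE 0.16, edgeR adjusted p = 0.0358). The Itga6 call was lost on leaving out any of Sham replicates 1 to 4 or MI replicates 2, 4 and 6 (edgeR adjusted p from 0.0667 to 0.0787). Under library size alone Itga6 and Itgb8 kept their sign but did not pass, at -0.18 and -0.28. They were not the only falls of the infarct zone to lose their call in that fit. It called 5 members lower in place of 10, beside 2735 of all genes in place of 4286.

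Among the laminins of the infarct zone, Lama3 rose and Lamb2 and Lamc3 fell. Lama3, the alpha chain of the laminin under epithelia and the one with 3 AP-1 motifs above, was at 1.96 to 2.99 CPM in Sham (median 2.85) and 3.82 to 20.6 CPM in MI (median 10.2), without overlap. It rose by 2.12 (SE 0.34, edgeR adjusted p = 0.000733), and by 2.04 in the border zone (edgeR adjusted p = 0.00192). Lamb3, a beta chain that it usually joins, was at 0.12 on the log2 scale (edgeR adjusted p = 0.700). Lama1, an alpha chain of embryonic basement membranes, had at most 2 counts in the Sham infarct libraries and 6 to 73 counts in MI, too few for the test with all animals.

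Lamb2, the beta chain of mature muscle and vessel basement membranes, was at 272 to 942 CPM in Sham (median 807) and 266 to 554 CPM in MI (median 434). It fell by 0.82 on the log2 scale in the infarct zone (SE 0.28, edgeR adjusted p = 0.0287), by 0.95 in the border zone and by 0.78 in the remote zone (edgeR adjusted p = 0.0300 and 0.0220). Each of these calls was lost without certain single hearts, in the infarct zone any of Sham replicates 1, 2, 3 and 6 or MI replicates 2, 4 and 6 (edgeR adjusted p from 0.0517 to 0.0626), in the border zone any of Sham replicates 3, 4 and 6 or MI replicates 2 and 3 (0.0618 to 0.0662) and in the remote zone any of Sham replicates 2 and 4 or MI replicates 3 and 5 (0.0504 to 0.0537). Without Sham replicate 5, the lowest Sham heart, the fall was 0.99, 1.12 and 0.92 on the log2 scale (edgeR adjusted p = 0.00102, 0.00147 and 0.000272). Lamc3, a gamma chain of vessel and nerve basement membranes, was at 0.573 to 3.56 CPM in Sham (median 3.27) and 0.889 to 1.61 CPM in MI (median 1.13) and fell by 1.18 (SE 0.38, edgeR adjusted p = 0.0207). Lama2, Lama4, Lama5, Lamb1 and Lamc1 did not pass in the infarct zone, at -0.36, 0.02, 0.34, 0.25 and 0.31 on the log2 scale.

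The effect of untreated MI differed between the infarct and the remote zone for 13 of the 37 members, by edgeR's interaction test with the heart as a block, where 28.9% of all genes passed. The difference was positive for 11 of them (13.6% of all genes) and negative for 2 (15.3%). With the 2 zones of a heart treated as unrelated, 2 members passed, a fit whose share of all genes is not given here. With the heart as a block but without Sham replicate 5 the count was 10, beside 24.8% of all genes. Itga11 rose more in the infarct than in the remote zone, by 2.33 on the log2 scale (SE 0.41, edgeR adjusted p = 0.00190), and Lama3 by 1.44 (SE 0.33, edgeR adjusted p = 0.00660). Itgb2 and Itgax differed by 1.73 and 0.95 in the same direction (edgeR adjusted p = 0.00328 and 0.00517). The zone difference of these leukocyte integrins was nearly the same without Sham replicate 5, at 1.71 and 0.91 (edgeR adjusted p = 0.00848 and 0.0142), and that heart was high in both zones. Itgae went the other way, with a difference of -1.14 (SE 0.15, edgeR adjusted p = 0.000657), and without Sham replicate 5 it fell in the infarct zone and was higher in MI in the remote zone, by 0.43 (edgeR adjusted p = 0.0144).

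In the infarct zone the cell sheet was not accompanied by a detectable change in any member. No member of 37 passed against untreated MI by edgeR's quasi-likelihood test, where 0% of 16196 genes passed, and DESeq2 also called 0 members. At an unadjusted p under 0.05 there were 4 members, beside 8.28% of all genes. The members with the lowest unadjusted p were Itga9, a receptor for tenascin and osteopontin, at -0.52 (SE 0.21), Itga2, a collagen receptor, at 0.57 (SE 0.24) and Itga5 at 0.30 (SE 0.13), with edgeR adjusted p of 0.548, 0.569 and 0.570. Itgb2 was at 40.8 to 280 CPM in MI+Cell Sheet (median 150), beside 47.2 to 298 CPM in untreated MI, and Itga8 at 39.5 to 132 CPM (median 75.5).

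In the border zone the laminin chains Lama3, Lama5 and Lamc3 and the integrins Itga3, Itga5 and Itgb4 were higher with the cell sheet, and Itgae was lower. Against untreated MI, 6 members rose and 1 fell of 37 tested, where 18% of all genes passed (8.47% higher and 9.48% lower), so that the share of members called was near that of all genes. The comparison shares its MI libraries with the comparison of MI and Sham. Lama5, the alpha chain of vessel and epithelial basement membranes, was at 44.3 to 101 CPM in MI (median 79.5) and 146 to 173 CPM in MI+Cell Sheet (median 159). The groups did not overlap, as for 9.72% of all genes, and the log2 fold change was 1.07 (SE 0.19, edgeR adjusted p = 0.00315). Itga3, which binds laminins that contain Lama5 or Lama3, was at 6.76 to 12.4 CPM in MI (median 10.2) and 16.7 to 22.9 CPM in MI+Cell Sheet (median 21.3), again without overlap, a rise of 1.06 (SE 0.15, edgeR adjusted p = 0.000984).

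Lama3 was at 3.66 to 12.9 CPM in the MI border zone (median 8.87) and 9.42 to 57.4 CPM in MI+Cell Sheet (median 34.5), a rise of 2.03 (SE 0.47, edgeR adjusted p = 0.0112). Lamc3 was at 0.469 to 2.23 CPM (median 0.773) and 1.07 to 7.17 CPM (median 4.07) and rose by 2.09 (SE 0.48, edgeR adjusted p = 0.0116). Itgb4, which pairs with Itga6 in the hemidesmosomes of epithelia, was at 12.7 to 28.1 CPM (median 16.8) and 10.8 to 70.7 CPM (median 52.2) and rose by 1.36 (SE 0.39, edgeR adjusted p = 0.0294). That call was lost on leaving out any of MI replicates 2 to 6 or MI+Cell Sheet replicates 1, 2, 5 and 6 (edgeR adjusted p from 0.0503 to 0.0694). All of these 3 genes were lowest in MI+Cell Sheet replicate 3 and highest in replicate 1 among the border pieces of the group. The summed CPM of 5 mesothelial and epithelial markers followed the same extremes, at 43.9 in replicate 3 and 538 in replicate 1, with 0 of these 5 markers called between the groups. Their part in the result was not tested. Of the 5 adipocyte markers 4 were tested, and 2 were called higher in the MI+Cell Sheet border zone. Their sum ran from 294 to 1088 CPM in MI+Cell Sheet (median 509) and from 254 to 891 CPM in MI (median 507). Most of it was Fabp4, which endothelium also expresses, with medians of 353 and 506 CPM, whereas Adipoq, Plin1, Cidec and Lep had medians of 82.6, 83.7, 21.2 and 3.29 CPM in MI+Cell Sheet against 0.109, 0.264, 0.371 and 0 CPM in MI. Each of these 5 was highest in MI+Cell Sheet replicate 6, and the part of adipose tissue in the rises was not tested.

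**Figure D4:**
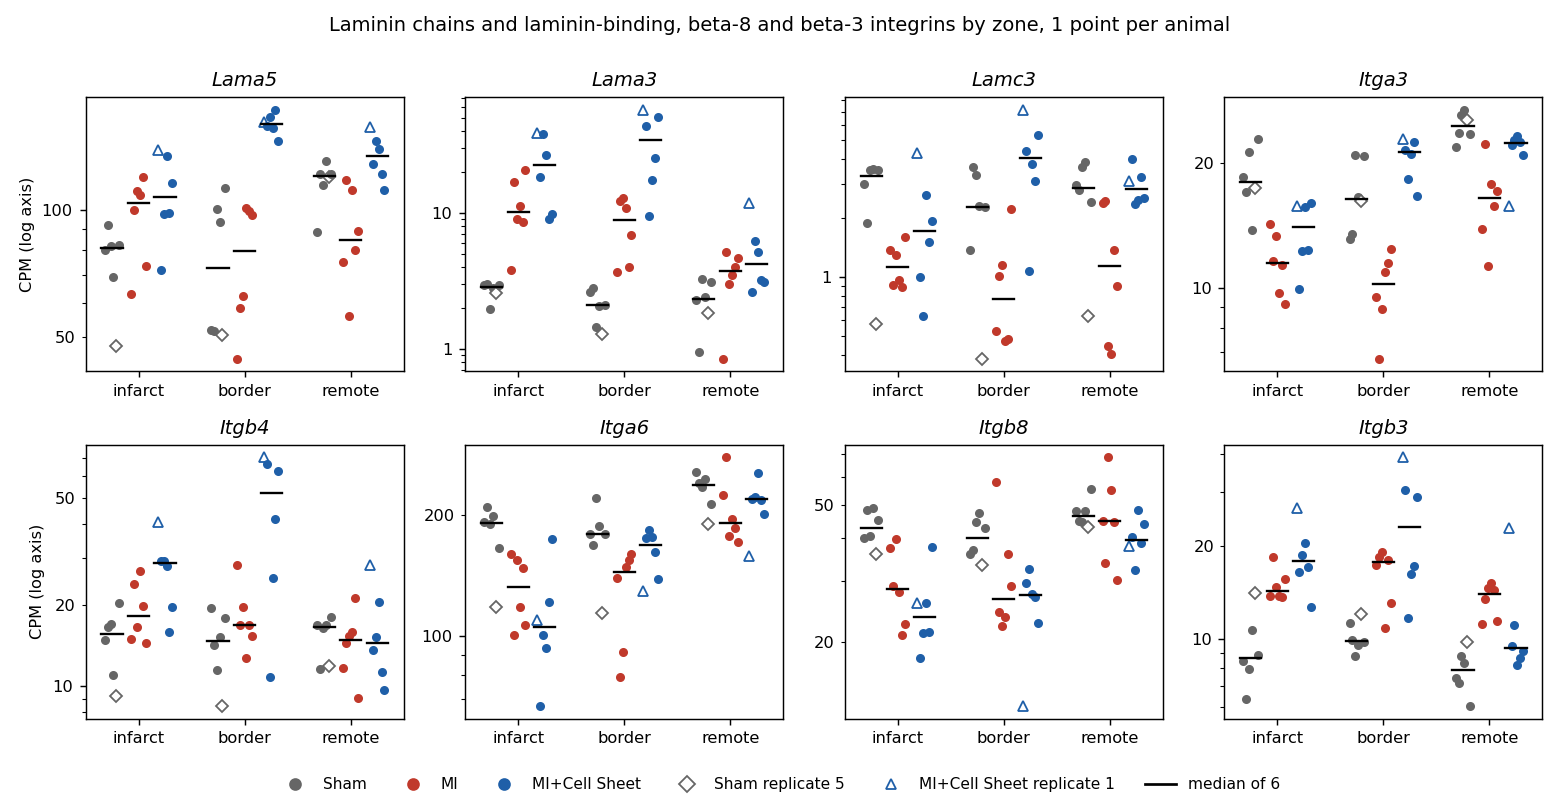
CPM (log axis) of 3 laminin chains and 5 integrins, among them the laminin receptors Itga3, Itga6 and Itgb4, in every library, by zone and treatment (grey Sham, red MI, blue MI+Cell Sheet), with a black bar at the median of 6, an open diamond for Sham replicate 5 and an open triangle for MI+Cell Sheet replicate 1. In the border zone the MI+Cell Sheet points of Lama5 (146 to 173 CPM) and Itga3 (16.7 to 22.9 CPM) lie above all MI points.

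Itga5 rose by 0.52 in the border zone (SE 0.13, edgeR adjusted p = 0.0179), from 95.6 to 154 CPM in MI to 151 to 226 CPM in MI+Cell Sheet. Itgae was the member that fell. It was at 14.5 to 16.1 CPM in the 6 MI border pieces and 7.24 to 10.9 CPM in MI+Cell Sheet, a log2 fold change of -0.70 (SE 0.11, edgeR adjusted p = 0.00133) without overlap. With all 54 libraries in 1 fit this call was lost. There 6 members rose and 0 fell, where 17.6% of all genes passed (8.1% higher). In the fit of 12 libraries no other leukocyte integrin passed in the border zone, with Itgb2 at -0.08 and Itgam at 0.20 on the log2 scale (edgeR adjusted p = 0.928 and 0.826). Without MI+Cell Sheet replicate 1, whose border piece held 141 CPM of cardiomyocyte markers against 7674 to 24024 in the other 5, 7 members rose and 1 fell, where 18.8% of all genes passed (8.86% higher and 9.91% lower). Itga7 at 1.03 and Lamb2 at 0.75 were then called (edgeR adjusted p = 0.0312 and 0.0408), while Itgb4 at 1.21 was not (0.0503).

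In the remote zone 3 members rose with the cell sheet and none fell of 35 tested, where 17.1% of all genes passed (10.3% higher and 6.79% lower), a smaller share of the members than of all genes. Itga7 was at 118 to 238 CPM in MI (median 162), 156 to 413 CPM in MI+Cell Sheet (median 321) and 182 to 357 CPM in Sham (median 332). It was 0.89 higher in MI+Cell Sheet than in MI on the log2 scale (SE 0.21, edgeR adjusted p = 0.0180). Lamb2 was at 405 to 784 CPM in MI (median 537), 679 to 1176 CPM in MI+Cell Sheet (median 1002) and 449 to 1195 CPM in Sham (median 1016), and rose by 0.80 against MI (SE 0.18, edgeR adjusted p = 0.0152). For both genes the median of MI+Cell Sheet lay near that of Sham. Lama5 rose by 0.59 (SE 0.16, edgeR adjusted p = 0.0294), from a median of 84.7 CPM to 134 CPM, a call lost without any of MI replicates 1 and 5 or MI+Cell Sheet replicates 2 to 5 (edgeR adjusted p from 0.0522 to 0.0690). Under library size alone 2 members rose and none fell, where 14.3% of all genes passed (6.93% higher). The cardiomyocyte list, summed, was at 25622 to 40565 CPM in the MI and 20347 to 59449 CPM in the MI+Cell Sheet remote pieces, with 1 of its 7 genes called higher. Its part in the rises of Itga7 and Lamb2 was not tested.

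Leaving out MI+Cell Sheet replicate 1, the heart with a fibroblast-rich remote piece, changed the remote result from 3 members to 15, of which 5 rose and 10 fell, and the share of all genes from 17.1% to 41.6% (20.8% higher and 20.8% lower). Itgb2 was at 26.8 to 62.0 CPM in MI (median 35.3) and 7.59 to 82.6 CPM in MI+Cell Sheet (median 11.1), where the highest value was replicate 1. With all animals it differed by -0.82 (SE 0.57, edgeR adjusted p = 0.315), and without that heart by -1.91 (SE 0.28, edgeR adjusted p = 0.000339). Itgam behaved alike, at 19.9 to 41.7 CPM in MI and 7.15 to 55.3 CPM in MI+Cell Sheet, with log2 differences of -0.83 and -1.64 (edgeR adjusted p = 0.221 and 0.000303). Itgal, Itga4, Itgb7 and Itgax were also lower without that heart, by 1.40, 1.03, 0.94 and 0.46 on the log2 scale (edgeR adjusted p = 0.00108, 0.0144, 0.0192 and 0.0147). Itgb3, Itgb1, Itgav and Itga8 made up the rest of those that fell, and Itga7, Lamb2, Lama5, Itga3 and Lamc3 those that rose. The macrophage and pan-leukocyte markers summed to 706 to 3000 CPM in the MI remote pieces and 321 to 613 CPM in the MI+Cell Sheet remote pieces other than replicate 1, which held 2904 CPM. Their part was not tested. The genes named only for this fit were chosen after their values were seen.

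**Figure D5:**
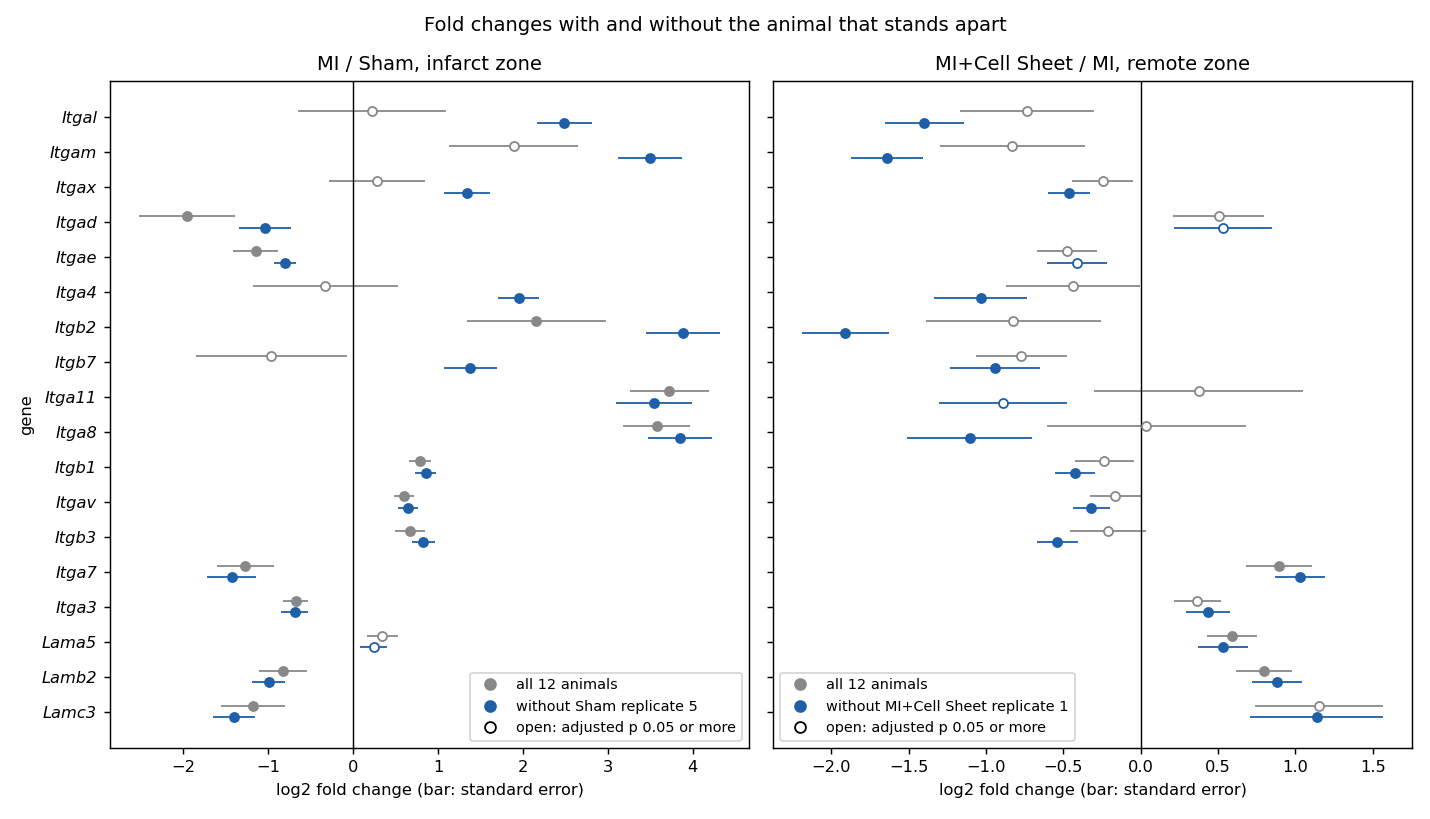
Log2 fold change with its standard error (horizontal axis) of 18 members in MI against Sham, infarct zone, with all hearts and without Sham replicate 5, and in MI+Cell Sheet against MI, remote zone, with all hearts and without MI+Cell Sheet replicate 1. Filled points have an adjusted p under 0.05 by edgeR's quasi-likelihood test, and Itgb2 moves from 2.16 to 3.89 in the first comparison and from -0.82 to -1.91 in the second.

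The effect of the cell sheet was not shown to differ between zones. In the interaction tests with the heart as a block, 0 of 37 members passed between the border and the infarct zone and 0 of 37 between the border and the remote zone, where 0% of all genes passed in both and 6 members in each had an unadjusted p under 0.05. Against 11.6% and 20.4% of all genes at that limit, these counts are not high. The lowest edgeR adjusted p were 0.186 for Lama5, whose difference between border and infarct zone was 0.96 (SE 0.23), and 0.144 for Itga3, whose difference between border and remote zone was 0.71 (SE 0.23). DESeq2 called Lama5 and Lamc3 in the first of these (DESeq2 adjusted p = 0.0171 and 0.0290) and no member in the second.

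Compared with Sham, the MI+Cell Sheet hearts differed in the infarct and border zones and hardly in the remote zone. These comparisons share the Sham libraries with those of MI. For the infarct zone 14 members rose and 9 fell of 35, where 57.9% of all genes passed (28.6% higher and 29.2% lower), or 18 and 3 under library size alone (60% of all genes, 39.8% higher). For the border zone 12 rose and 3 fell of 36, where 43.6% of all genes passed (20.4% higher and 23.2% lower), or 18 and 2 under library size alone (46.7% of all genes, 33.3% higher). Without Sham replicate 5 the counts were 18 and 9 in the infarct and 19 and 3 in the border zone, beside 70% (36.4% higher and 33.6% lower) and 61.6% (32.9% and 28.7%) of all genes. Lama3 was 3.13 and 4.05 higher on the log2 scale, Itga8 3.91 and 3.39, and Itga11 4.44 and 2.90. Itgae was lower by 1.29 and 1.70 on that scale (edgeR adjusted p = 0.00191 and 0.00127). The laminin chains Lama5 and Lamc1 were 1.05 and 0.53 higher in the border zone (edgeR adjusted p = 0.00221 and 0.0184). Apart from Lama3, Itga8 and Itga11, these genes were named after their values were seen.

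In the remote zone no member of 35 passed between MI+Cell Sheet and Sham by edgeR's quasi-likelihood test, with all hearts or without Sham replicate 5, where 0.0066% and 0.111% of all genes passed and, with all hearts, 10% had an unadjusted p under 0.05. The members with the lowest unadjusted p were Itga8 at 2.08 (SE 0.65), Lama3 at 1.21 (SE 0.41) and Itga11 at 1.89 (SE 0.65), with edgeR adjusted p of 0.359, 0.388 and 0.392. Itga8 was at 3.26 to 11.4 CPM in Sham (median 4.97), 5.94 to 44.0 CPM in MI (median 26.9) and 6.94 to 92.4 CPM in MI+Cell Sheet (median 11.3). Its highest value came from replicate 1, and the other 5 lay at 18.1 CPM or below. DESeq2 called 1 member, Itga8 (DESeq2 adjusted p = 0.0420).

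Leukocyte integrins were set against mesenchymal and muscle integrins as ratios of summed CPM within each library, which are compared between groups and not read as amounts of protein. The ratio of 8 leukocyte to 10 mesenchymal integrins in the infarct zone was 0.0627 to 0.765 in Sham (median 0.0750), 0.133 to 0.336 in MI (median 0.167) and 0.105 to 0.325 in MI+Cell Sheet (median 0.208). The highest Sham value was replicate 5 and exceeded all hearts with an infarct. In the remote zone the medians were 0.0477 in Sham, 0.0977 in MI and 0.0516 in MI+Cell Sheet, with ranges of 0.0462 to 0.575, 0.0736 to 0.114 and 0.0424 to 0.113. Within MI+Cell Sheet the highest of these was again replicate 1. In the border zone the medians were 0.0783 in Sham, 0.179 in MI and 0.187 in MI+Cell Sheet. The 10 mesenchymal integrins include Itgb1, which also pairs with Itga7. Itgb1 carried a large part of their sum, at 428 to 561 CPM in the Sham infarct position, where the 10 summed to 1026 to 1084 CPM. The ratio of mesenchymal to muscle integrins was 3.61 to 12.1 in Sham (median 4.68), 8.57 to 47.5 in MI (median 23.0) and 6.53 to 55.5 in MI+Cell Sheet (median 30.8) in the infarct zone. Its remote medians were 3.78, 9.56 and 4.13. In the border zone it was 3.86 to 13.7 in Sham, 12.8 to 39.3 in MI and 7.68 to 30.4 in MI+Cell Sheet. The ratio of leukocyte to muscle integrins there was 0.219 to 12.1, 1.21 to 16.2 and 0.661 to 12.8 in the same order. In the infarct zone it was 0.226 to 9.23, 1.14 to 15.99 and 0.684 to 18.1. In the remote zone it was 0.159 to 4.43, 0.461 to 1.51 and 0.139 to 1.49. The highest Sham value was replicate 5 in each of these ranges. These ratios are given as a description without a test.

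The genes that work with integrins and laminins moved in parts of the same comparisons. In MI against Sham, infarct zone, 9 of 21 tested adaptors and kinases rose and 6 fell, 13 of 18 integrin ligands rose and 1 fell, and 7 of 17 basement membrane partners rose and 7 fell, where 49.9% of all genes passed (22.7% higher and 27.2% lower). Col1a1, the main collagen of scars, rose by 3.70 and Fn1, fibronectin, by 3.51 on the log2 scale (edgeR adjusted p = 4.10e-05 and 4.33e-05). Actn1 and Parva, which tie integrins to actin, rose by 1.88 and 0.92 (edgeR adjusted p = 0.000334 and 0.000632). Col18a1 and Nid1, both components of basement membranes, rose by 2.38 and 1.27 (edgeR adjusted p = 0.000151 and 0.000330). For the border zone 8 adaptors rose and 6 fell, 11 ligands rose and 1 fell, and 5 basement membrane partners rose and 6 fell, and in the remote zone these counts were 4 and 5, 9 and 0, and 4 and 5. Of all genes 41.7% passed in the border zone (18.4% higher and 23.2% lower) and 25.8% in the remote zone (11.7% and 14.2%).

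With the cell sheet, 0 of 56 of these genes passed in the infarct zone against MI by edgeR's test, where 0% of all genes passed, and 6 of the 56 had an unadjusted p under 0.05. Of the border zone genes, 3 adaptors rose and 1 fell of 21, 1 ligand rose of 18, and 5 basement membrane partners rose of 17 with none lower. The share of all genes that passed was 18% (8.47% higher and 9.48% lower), so that the adaptors were near it and the ligands below it. Hspg2, perlecan, rose by 1.12 and Col4a2, a chain of the collagen network of basement membranes, by 0.94 (edgeR adjusted p = 0.00343 and 0.0132), both without overlap between the groups. Npnt, nephronectin, the ligand of the receptor formed by Itga8, rose by 1.32 (edgeR adjusted p = 0.0238), and Tln2 and Tln1, the talins that activate integrins, rose by 0.85 and 0.43 (edgeR adjusted p = 0.0154 and 0.0184). The remote zone had 3 adaptors that rose of 21, 1 ligand that fell of 17, and 6 basement membrane partners that rose of 17, where 17.1% of all genes passed (10.3% higher and 6.79% lower). Dag1, dystroglycan, the other laminin receptor of muscle fibres, and Dmd, dystrophin, a part of its complex, rose by 0.55 and 0.63 (edgeR adjusted p = 0.00669 and 0.0173). Vcl, vinculin, and Tln2 rose by 0.81 and 0.72 (edgeR adjusted p = 0.00724 and 0.0116), and Tgfb1 fell by 0.90 (edgeR adjusted p = 0.0238). Against Sham, no gene of these lists passed in the remote zone of MI+Cell Sheet hearts, of 56 tested.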

How the data were processed

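Per the labels and the study's methods, the authors aligned paired-end reads of poly(A) RNA with STAR to mRatBN7.2 and deposited a table of whole-number counts per gene for each library. The counting program and strandedness are not given in the sources used here, so reads of overlapping genes cannot be told apart. The 5 summary lines of each table (17.0% to 42.8% of its counts) were left out. Groups followed the labels. Each comparison of treatments within a zone was fitted on its 12 libraries with edgeR 4.0.16 in R 4.3.3 (quasi-likelihood F test, TMM factors, default filter on low counts, Benjamini-Hochberg adjustment over all genes tested, threshold 0.05). The SE of a log2 fold change is its size divided by the square root of F. Differences between zones were tested on 24 libraries with the heart as a block, because the zones of a heart come from 1 animal (correlation of deviations between zones from -0.47 to 0.92). CPM used TMM factors over all 54 libraries. Pairs of libraries within groups differed by more than sampling noise (chi-square per degree of freedom 7.97 to 539 over 135 pairs, none identical). The fits were tested on simulated data first.

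The members and lists were chosen with earlier results of these data known. Genes named were the 3 members per role with the lowest adjusted p among those called in MI against Sham, infarct zone, up to 10 called members for MI+Cell Sheet against MI in the border and remote zones, the 3 lowest p where no member was called, up to 5 per interaction test, and the 2 pathway genes per list and comparison with the lowest adjusted p. Alternatives were DESeq2 1.42.0, other filters, library size alone, all libraries in 1 fit, a replicate block and leaving out each animal. Human transcripts, transcript lengths and proteins were not analysed here. Promoters were matched by symbol, and 28 of 37 members matched. The values of 1 member, which is included in the counts, are not reported here.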

Additional observations from a re-analysis of the deposited data

Results flagged for a closer look

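Single hearts stood apart from the other 5 of their group in 10 of 64 groups of 6 examined for the members named above, by the gap to the nearest value relative to the range of the group, where chance flags about 1 in 20. The same hearts recur across genes, and most of the 10 came from Sham replicate 5. The 64 groups are therefore not independent, and the 10 are not a count of hearts. In Sham replicate 5 the infarct position was highest for Itgb2 (150 CPM, next 11.6), Itgae (62.2 CPM, next 28.3), Itgad (20.0 CPM, next 4.29), Itga2b (27.2 CPM, next 11.0) and Itgb1 (561 CPM, next 457), and lowest for Lamb2 (272 CPM, next 753). Its remote position was highest for Itga8 (11.4 CPM, next 6.31). The remote piece of MI+Cell Sheet replicate 1 was highest for Itga8 (92.4 CPM, next 18.1) and Itga11 (38.7 CPM, next 5.58), and the infarct piece of MI replicate 3 was highest for Itgad (3.08 CPM, next 1.69). Sham replicate 5 and MI+Cell Sheet replicate 1 are the hearts whose leukocyte, lymphocyte and fibroblast markers are given in the report.

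The effect of MI against Sham differed between the infarct and the remote zone, by edgeR's interaction test with the heart as a block, for 13 members. The difference of the log2 fold changes was 2.33 for Itga11, 1.73 for Itgb2, 1.58 for Itga8, 1.44 for Lama3 and 1.33 for Itgam. It was 0.96 for Itgal, 0.95 for Itgax, 0.76 for Lama5, 0.51 for Itgb5, 0.50 for Itga5 and 0.40 for Itgb1, and -0.48 for Itgb8 and -1.14 for Itgae. Of these, Itgal, Itgb1 and Lama5 were not called without Sham replicate 5 (edgeR adjusted p = 0.0966, 0.0913 and 0.0682), and these 3 and Itgb8 were each lost without several other single hearts.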

How the results depend on the processing

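No member changed direction under any alternative fit of a comparison in which it was called. With the replicate number as a block, MI+Cell Sheet against MI gave 3 members for the border and 0 for the remote zone, in place of 7 and 3, and the numbers do not pair the animals of different treatments: correlations of deviations between libraries of the same number ran from -0.68 to 0.55, and at most 2 of 6 pairs correlated best with their own number. Without the heart as a block, 2 members in place of 13 were called in the infarct against remote interaction of MI. The share of all genes in these fits is not given here, so the losses are not read as particular to the members. DESeq2 called 5 members for MI+Cell Sheet against MI, remote zone, 1 in the remote zone of MI+Cell Sheet against Sham (also 1 with all 54 libraries in 1 fit) and 2 in the border against infarct interaction of the cell sheet, in place of 3, 0 and 0. Of all genes DESeq2 called 13.5%, 0.629% and 1.02% in these, and the fit of all 54 libraries called 1.03% in the second. Leaving out 1 animal gave 15 to 27 members for MI against Sham in the infarct zone, 13 to 23 in the border and 5 to 19 in the remote zone, beside 6689 to 10434, 5068 to 9641 and 2744 to 7177 of all genes. It gave 0 to 0, 6 to 8 and 2 to 15 for MI+Cell Sheet against MI, 16 to 27, 15 to 22 and 0 to 0 for MI+Cell Sheet against Sham, and 10 to 13, 0 to 0 and 0 to 0 for the interactions. The counts of all genes in the same order were 0 to 0, 1941 to 3083 and 1096 to 6450, then 7975 to 11159, 5820 to 9954 and 0 to 17. For the interactions they were 3654 to 5727, 0 to 0 and 0 to 216. The lowest remote counts were without MI replicate 4 (5, MI against Sham) and without MI replicate 5 (2, MI+Cell Sheet against MI). Leaving out 1 animal moved calls of single members in both directions. In MI against Sham, infarct zone, Itga4, Itgal, Itgax and Itgb7 were gained without Sham replicate 5. In the same comparison Itgb2 was lost without any 1 of 10 animals. Itgb2 and Itgam were gained in MI+Cell Sheet against MI, remote zone, without MI+Cell Sheet replicate 1. The cause was not tested. Counting error is small for members above 10 CPM at these depths, and Lama1, Itga10 and Itgb6 could be tested in 2, 5 and 7 of 9 comparisons.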
